A study of Mus musculus with 15 samples.

Results

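Mouse CD4+ T cells cultured toward TH17 without the transcription factor STAT3 were compared with cells cultured toward regulatory T (Treg) cells. The comparison rested on 3 STAT3-knockout TH17 libraries and 3 Treg libraries, which are 6 of the 15 libraries in the series. It covered 11896 of 55421 gene IDs, those with at least 1 TPM (a transcript level normalized to transcript length and to the library's total) in at least 3 of the 6 libraries. The measurement was poly(A)-selected bulk RNA-seq of cells taken on day 5.

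Both cultures began from sorted naive CD4+ T cells of spleen and lymph nodes, plated on anti-CD3 (2 µg/ml) and anti-CD28 (1 µg/ml). Both received anti-IFNγ and anti-IL-4, each at 1 µg/ml, and both were DMSO controls of the compound arm of the study. The knockout cells were labelled STAT3-fl/fl CD4-cre, so that deletion depends on a Cre expressed in T lineage cells. They were grown with 2.5 ng/ml TGFβ and 10 ng/ml each of IL-6, IL-1β and IL-23. The Treg cells were wild type and were grown with 200 U/ml IL-2 and TGFβ, for which the labels give 0.5 ng/ml or another dose not stated per library. Wild-type TH17 cultures with DMSO (3 libraries) had the TH17 cytokines and serve below as a reference level. Genotype and cytokines, and by these labels TGFβ dose, differ together between the knockout TH17 and Treg groups and cannot be told apart. The labels do not say which libraries came from separate animals or cultures, so the p-values measure only how these libraries vary, and that variation may be technical.

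TGFβ receptor signals induce FOXP3, the transcription factor that defines Treg cells, in activated naive CD4+ T cells. IL-2 supports FOXP3 through STAT5. IL-6, IL-23 and related cytokines act through JAK kinases on STAT3, which induces IL-17 and other TH17 genes, and TGFβ given with IL-6 favours TH17 over Treg cells. Both STAT proteins bind short palindromic DNA elements and induce SOCS genes, whose proteins feed back on the receptors.

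Stat3 transcripts (chr11:100885098-100939540 in GRCm38, minus strand) were at 33.5, 38.4 and 30.7 TPM in the knockout libraries. They were at 129.6, 134 and 139.9 TPM in Treg and 129.7, 133 and 99.8 TPM in wild-type TH17 libraries. Every knockout library was thus below every wild-type library, with 3.93-fold less Stat3 than Treg (log2 difference -1.95, 95% interval -2.16 to -1.73, limma adjusted p = 1.68e-09). The TPM level does not tell whether the remaining transcript comes from the deleted allele. All 9 CD4 T cell markers were detected in both groups, and of these 4 were higher and 4 lower in the knockout (18.4% and 26.2% of all genes tested). Cd4 was at 209.8 ± 13.1 TPM (SD, n = 3, as for all values with ±) in knockout and 340.3 ± 14.2 TPM in Treg cultures, and Trac, the T cell receptor alpha constant region, at 599 ± 93.6 and 632 ± 40.7 TPM. The share of TPM from ribosomal protein genes was 28.7% ± 1.2 in knockout and 25.0% ± 0.17 in Treg libraries. Mitochondrially encoded transcripts made up 4.25% ± 0.48 and 3.54% ± 0.13. Groups did not overlap in either share (exact permutation test, two-sided, p = 0.1, the smallest that 3 against 3 allows). TPM carries no read depth, so the depth behind each value is unknown.

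Across the transcriptome the cultures differed at many genes by small amounts. By limma on log2(TPM + 1), 2191 genes (18.4%) were higher and 3118 (26.2%) lower in knockout TH17 than in Treg cultures at an adjusted p under 0.05. A smaller set differed by more than 2-fold by a test against that size (limma treat): 249 genes (2.09%) higher and 322 (2.71%) lower. A gene was called close where the 95% interval of its log2 difference lay within -0.5 to 0.5, a ratio of at most 1.41-fold. This held for 3885 genes (32.7%), of which 570 were also called higher or lower with a small difference. A further 3272 genes were neither called nor close, so that neither a difference nor likeness could be stated for them. The 3 knockout and 3 Treg libraries did not overlap for 6529 genes (54.9%). Precision depended on level: 12% of genes below 5 TPM were close, against 53.1% of those at 50 TPM or more, where the interval reached a median of 0.186 to either side of the estimate instead of 0.412. On this scale the pseudocount of 1 TPM understates fold changes of low genes.

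The balance of calls depended on scaling. Of the calls, 41.3% were higher in the knockout, and the median log2 difference over all genes was -0.07. With median-of-ratios scaling 49.5% were higher, with quantile normalization 50.4%, and without ribosomal protein and mitochondrially encoded genes 51.2%. No gene called in the main analysis was called in the opposite direction under any alternative. A change of sign without a call was not counted.

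The distance between knockout TH17 and Treg cultures was of the same order as the distance of each from wild-type TH17. The median absolute log2 difference was 0.318 between knockout TH17 and Treg, 0.373 between knockout and wild-type TH17, and 0.327 between Treg and wild-type TH17. The genes past 2-fold numbered 571, 786 and 453 in the same order, and the genes called 5309 (44.6%), 6100 (51.3%) and 5476 (46.0%). These comparisons share libraries, so their values stand side by side with no test between them. Pearson correlations of log2 levels across genes were 0.928 to 0.931 between knockout and Treg libraries, and 0.904 to 0.917 between knockout and wild-type TH17 libraries. Between Treg and wild-type TH17 libraries they were higher, at 0.934 to 0.941. Within groups they were 0.981 to 0.985 among the knockout libraries and 0.986 to 0.987 among the Treg libraries.

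Foxp3, whose product defines Treg cells, was expressed in the knockout TH17 cultures at a higher level than in the Treg cultures. It was at 192, 225 and 197 TPM in the knockout libraries and 131, 131 and 127 TPM in the Treg libraries, with no overlap. Wild-type TH17 libraries, given the same cytokines, had 12.2, 13.6 and 9.37 TPM. The knockout level was 1.58-fold that of Treg (log2 difference 0.65, 95% interval 0.43 to 0.87, limma adjusted p = 0.000124). In bulk RNA a larger share of positive cells and more RNA per cell cannot be told apart. Of 26 genes of the Treg program, 24 passed the level filter. Of these, 6 were higher in the knockout and 12 lower, where 18.4% and 26.2% of all genes tested were, and 6 were not called. Of the 24, 3 were close. The median log2 difference over all 24 was -0.40, against -0.07 over all genes.

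The Treg genes that were higher in knockout cultures included Itgae, which encodes the integrin CD103. It was at 128, 135 and 109.6 TPM in the knockout and 0.28, 0.14 and 0.48 TPM in the Treg libraries, and at 1.06 TPM on average in wild-type TH17. Its log2 difference of 6.59 (95% interval 6.29 to 6.90) was the largest among the higher genes (limma adjusted p = 3.64e-13). Ikzf2, encoding the transcription factor Helios, was low in both, at 5.02, 7.93 and 4.82 TPM in the knockout and 0.6, 2.09 and 1.56 TPM in Treg, a 4.18-fold difference (limma adjusted p = 9.9e-05). Nt5e, the ecto-enzyme CD73 that makes adenosine, was 4.07-fold higher in the knockout (131 ± 24.4 against 32.2 ± 1.28 TPM). Penk, the enkephalin precursor, was 2.62-fold higher and the chemokine receptor gene Ccr8 1.58-fold higher.

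The Treg genes that were lower in the knockout were mainly surface receptors. Il2ra, the high-affinity IL-2 receptor chain CD25, was at 355, 425 and 336 TPM in the knockout and 728, 719.9 and 732 TPM in Treg libraries (1.95-fold lower, limma adjusted p = 3.24e-06). Wild-type TH17 cultures stood near Treg, at 692 ± 109 TPM. Ctla4, an inhibitory receptor, was at 186, 232 and 192 TPM against 321, 325 and 327 TPM, 1.59-fold lower in the knockout (limma adjusted p = 8.86e-05). The TNF receptor family gene Tnfrsf9 (4-1BB) was 4.55-fold lower in the knockout, at 236, 273 and 248 TPM against 1148, 1128 and 1167 TPM. Its relatives Tnfrsf18 (GITR) and Tnfrsf4 (OX40) were 3.2-fold and 2.8-fold lower, and Izumo1r, the folate receptor FR4 of Treg cells, 2.52-fold lower. None of these overlapped between the groups. Capg (95% interval of the log2 difference -0.07 to 0.18), Lag3 (-0.09 to 0.31) and Entpd1 (-0.28 to 0.35), which encodes the ecto-enzyme CD39, were close.

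The TH17 cytokine genes were low in the knockout cultures and still above the Treg level. Il17a was at 10.1, 8.76 and 11.7 TPM in the knockout libraries and 0, 0.08 and 0 TPM in Treg libraries (log2 difference 3.44, 95% interval 3.19 to 3.69, limma adjusted p = 2.66e-11). Wild-type TH17 libraries had 1279.8, 1356 and 1378 TPM. Il17f stood at 19.6, 18.2 and 19.4 TPM in the knockout, 0.25, 0.14 and 0.83 TPM in Treg and 2646, 2429 and 2579 TPM in wild-type TH17 libraries. For both genes the knockout was above Treg in every library and far below every wild-type TH17 library. No knockout library held Il21 (0 in 3 of 3), Treg libraries had 0.86, 1.16 and 0.8 TPM, and the level was 205 TPM on average in wild-type TH17. Il23r, the IL-23 receptor chain, did not pass the filter, with 0, 0.03 and 0.15 TPM in the knockout, 0.1, 0.13 and 0 TPM in Treg and 7.29 TPM on average in wild-type TH17.

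Other TH17 genes differed from Treg in both directions. Maf, a transcription factor of TH17 and TFH cells, was at 22.3 ± 2.64 TPM in the knockout, 3.61 ± 0.308 in Treg and 79.5 ± 5.56 in wild-type TH17. Ccr6, the receptor for CCL20, was at 55.8, 76.3 and 68.1 TPM in the knockout and 4.57, 6.37 and 7.08 TPM in Treg, and here the knockout exceeded wild-type TH17 (30.4, 34.7 and 19.2 TPM) as well. Its ligand gene Ccl20 was 2.9-fold above Treg, and Batf, an AP-1 family factor needed for TH17 cells, 1.29-fold above. Of 20 TH17 genes 16 passed the filter, with 11 higher and 4 lower in the knockout than in Treg (18.4% and 26.2% of all genes tested). Il17a, Il17f and Ahr passed through the knockout libraries alone, and Ltb4r1 and Il24 through the Treg libraries alone, so the filter fixed the direction of these 5. The lower ones were Hif1a, the hypoxia factor (2.57-fold), Csf2, encoding GM-CSF (4.43-fold), Ltb4r1 (0.103 ± 0.0929 against 1.25 ± 0.175 TPM) and Il24 (0.0533 ± 0.0462 against 2.97 ± 0.896 TPM).

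**Figure D1:**
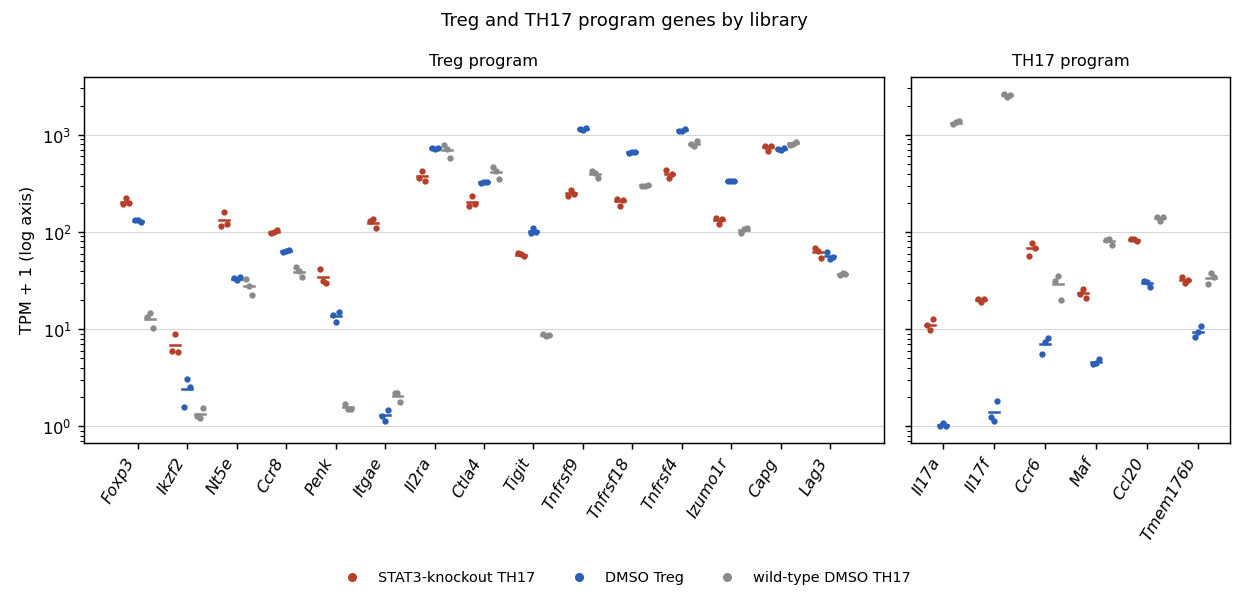
TPM + 1 on a log axis of Treg and TH17 genes in each library of STAT3-knockout TH17, Treg and wild-type TH17 cultures (points, 3 per group, with a bar at the mean). The knockout points lie above Treg for Foxp3, Itgae, Il17a and Il17f, below Treg for Il2ra and Ctla4, and far below wild-type TH17 for Il17a and Il17f.

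Genes downstream of STAT cytokine signals were mostly lower in the knockout than in Treg. In the list of STAT3 pathway genes and targets, 15 of 16 passed the filter, with 2 higher and 9 lower, the deleted gene Stat3 among the lower. Of the 15, 4 were close (32.7% of all genes were), and Ptpn2 counts as both lower and close. In the list of IL-2 and STAT5 response genes, 11 of 14 were lower and none higher, with a median log2 difference of -0.87. Of all genes tested, 18.4% were higher and 26.2% lower. The lists hold genes that respond to both STAT3 and STAT5. Socs3, a feedback inhibitor of IL-6 receptor signals, was at 10.4, 9.63 and 10.7 TPM in the knockout, 29.6, 27.4 and 30.2 TPM in Treg and 78.6, 88.5 and 80.3 TPM in wild-type TH17 libraries, so the groups were in separate ranges (2.84-fold below Treg, limma adjusted p = 1.16e-09). Cish, a SOCS family gene induced by STAT5, was at 66.4, 65.9 and 60.5 TPM in the knockout and 201, 196 and 203 TPM in Treg (3.11-fold lower, limma adjusted p = 3.46e-11). Wild-type TH17, at 217 ± 13.5 TPM, was near Treg. Socs2 behaved likewise, 2.62-fold below Treg.

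The kinase gene Pim1, a common STAT target, was at 63, 67.1 and 65.8 TPM in the knockout and 411, 417 and 398 TPM in Treg, 6.26-fold lower. Bcl3, a nuclear NF-kappaB cofactor, was 2.4-fold lower, Junb, an AP-1 subunit, 2.32-fold lower, and Myc 1.81-fold lower. Il6st, encoding the gp130 chain of the IL-6 receptor, went the other way, at 17.6, 23.7 and 17 TPM in the knockout and 11.2, 9.99 and 10.8 TPM in Treg (1.82-fold higher, limma adjusted p = 0.00536). Pias3, encoding a STAT3 inhibitor, was 1.52-fold higher. Among the STAT, JAK and SOCS families 11 of 19 members were lower and none higher (26.2% and 18.4% of all genes). Jak3, which signals from the common gamma chain, was 2.17-fold lower and Stat4, the IL-12 responsive STAT, 2.72-fold lower. Stat5b (-0.25 to 0.20) and the kinase gene Tyk2 (-0.27 to 0.21) were close by the interval of the log2 difference, and Il2rg, the common gamma chain, was both called and close, at 491 ± 36.5 against 635 ± 8.05 TPM.

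The STAT binding element TTCNNNGAA, a palindrome that reads the same on both strands, was searched in RefSeq promoters (GRCm38.p6, 250 bases before each start). It was in 2306 of 32851 promoters (7.02%) and in 674 of 11297 promoters of tested genes (5.97%). The STAT3 list had it in 3 of 17 promoters (17.6%), which belong to Bcl6 and Socs3, and the IL-2 and STAT5 list in 2 of 13 (15.4%), which belong to Lta and Tnfrsf9. The glycolysis and hypoxia list, described below, had it in 0 of 27. The stricter form TTCCNGGAA, contained in the first, was in 300 promoters (0.913%), in 1 of the 17 and in 0 of the 13. The windows below show the element in capitals for 3 of those genes and for Foxp3, 5′ to 3′ on the gene's strand (Socs3 and Tnfrsf9 as genes lower in the knockout, Foxp3 as higher and Lta as close). They lie at chr11:117969502-117969530 (minus, 154 bases before a start of Socs3), chr17:35205485-35205513 (minus, 152 bases before the start of Lta), chr4:150927853-150927881 (plus, 136 bases before a start of Tnfrsf9) and chrX:7580334-7580362 (plus, 139 bases before a start of Foxp3). The Socs3, Tnfrsf9 and Foxp3 windows lie within the annotated spans of their genes.
Socs3: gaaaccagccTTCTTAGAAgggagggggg
Lta: accatcactcTTCAGGGAAccaggcttcc
Tnfrsf9: caacagctgaTTCCAAGAAacccttcaga
Foxp3: gagctctgttTTCCAAGAAcgggcattag
Tnfrsf9 and Foxp3 share the same letters in the element, and their transcripts differed in opposite directions. Socs3 and Tnfrsf9 were lower in the knockout, and Lta, encoding lymphotoxin alpha, was close (220.0 ± 23.5 against 224 ± 3.84 TPM). A match describes the sequence and does not show binding.

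Every one of the 20 glycolysis and hypoxia genes was lower in the knockout than in Treg, with a median log2 difference of -1.50 and no member close. Of all genes tested, 26.2% were lower and 32.7% close. Glycolysis converts glucose to lactate and rises when T cells are activated. The summed share of these 20 transcripts was 0.866% ± 0.045 of TPM in knockout, 2.17% ± 0.041 in Treg and 2.40% ± 0.033 in wild-type TH17 libraries (knockout against Treg, exact permutation test, two-sided, p = 0.1, the smallest possible). Slc2a3, a glucose transporter, was at 6.8, 9.05 and 6.65 TPM in the knockout and 115, 117 and 118 TPM in Treg (15.6-fold lower, limma adjusted p = 1.26e-11). The transporter gene Slc2a1 was 4.61-fold lower. The hypoxia-inducible genes Egln3, a prolyl hydroxylase, and Bnip3, a mitophagy receptor, were 15.4-fold and 8.51-fold lower, at 10.1 ± 1.11 against 155 ± 1.63 and 18.4 ± 2.1 against 156 ± 7.2 TPM. For all 4 genes the knockout and Treg libraries did not overlap, and wild-type TH17 was at or above the Treg level, with means of 142, 146, 369.8 and 194 TPM.

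Most cholesterol synthesis genes and many fatty acid genes were lower as well. In cholesterol synthesis 18 of 22 genes were lower and 1 (Ebp) higher (26.2% and 18.4% of all genes), with a median log2 difference of -0.84. Hmgcs1, an early enzyme of the pathway, was at 43.6, 50.8 and 50.5 TPM against 126, 128 and 133 TPM, and Fdps was 2.7-fold lower. The call of Ebp ended without knockout replicate 3 (limma adjusted p = 0.0560) and without Treg replicate 3 (0.0610). Mvk (-0.34 to 0.07), Nsdhl (-0.30 to 0.01) and Dhcr7 (-0.12 to 0.34) were close by their log2 intervals. Here wild-type TH17 was nearer the knockout for Hmgcs1, at 55.3 ± 6.31 TPM. Scd1, the desaturase that makes oleate, was at 0.88, 0.51 and 0.57 TPM in the knockout and 97.4, 106 and 97.2 TPM in Treg (log2 difference -5.94, limma adjusted p = 1.38e-10). Scd1 passed the filter through the Treg libraries alone, so the filter fixed its direction and the p-value adds no support. Scd2 and the elongase gene Elovl6 were 5.16-fold and 8.88-fold lower, while Cpt1a, the gate for fatty acid oxidation in mitochondria, was 1.84-fold higher. Of 16 genes in the adenosine and fatty acid list 2 were higher and 10 lower, Scd1 among the lower (18.4% and 26.2% of all genes). The elongase genes Elovl1 (-0.11 to 0.12) and Elovl5 (-0.39 to 0.02) were close.

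Of the genes of the amino acid stress response run by ATF4, 16 of 18 were lower (26.2% of all genes), with a median log2 difference of -1.08. Chac1 and Vldlr passed the filter through the Treg libraries alone, so the filter fixed their direction. Asns, asparagine synthetase, was at 7, 5.66 and 5.08 TPM in the knockout and 82.7, 82.3 and 86.5 TPM in Treg (14.2-fold lower). Psat1 and Shmt2, enzymes of serine and one-carbon metabolism, were 2.58-fold and 1.96-fold lower, and the amino acid transporter gene Slc7a5 3.29-fold lower. The exception was Ddit3, encoding the stress factor CHOP, which was 1.33-fold higher. In the unfolded protein and heat shock list 12 of 16 were lower (26.2% of all genes), among them the chaperone gene Hspa5 (2.12-fold) and Xbp1, its inducer (3.4-fold). Hspa1a of this list passed through the Treg libraries alone, so the filter fixed its direction. Pdia4, Calr and Dnajb1 were close.

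Genes induced by T cell receptor signals were lower in the knockout for 17 of 20 members and higher for none (26.2% and 18.4% of all genes), with a median log2 difference of -0.84. Nr4a1, an early response gene used as a reporter of receptor signal strength, was at 179, 161 and 152 TPM in the knockout and 379, 361 and 378 TPM in Treg (2.28-fold lower, limma adjusted p = 1.79e-09). Wild-type TH17 libraries, at 197 ± 4.58 TPM, were nearer the knockout. The activation marker gene Cd69 (-0.08 to 0.39), Egr2 (-0.37 to 0.23) and Nfatc1 (-0.33 to 0.15) were close by their log2 intervals. In the AP-1, BATF and NF-kappaB list 3 were higher, 12 lower and 5 close of 20 (18.4%, 26.2% and 32.7% of all genes). Batf3 passed through the Treg libraries alone, so the filter fixed its direction. Fosl2, an AP-1 subunit, was at 5.7, 7.08 and 4.42 TPM against 41.6, 43.9 and 42.1 TPM (7.42-fold lower), and the stress-inducible Atf3 was at 0.98 ± 0.35 against 25 ± 6.54 TPM. Batf was the higher exception with Jun (1.25-fold) and Rela, and the call of Rela did not hold without Treg replicate 2 (limma adjusted p = 0.0526).

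**Figure D2:**
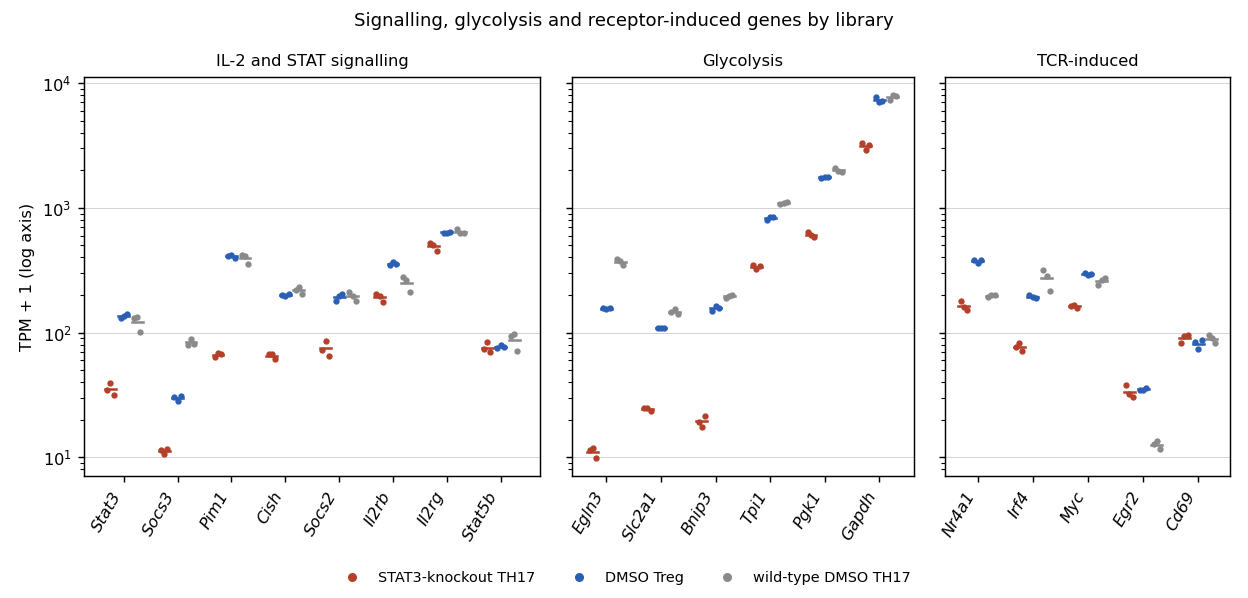
TPM + 1 on a log axis of cytokine signalling, glycolysis and T cell receptor-induced genes in each library of STAT3-knockout TH17, Treg and wild-type TH17 cultures (points, 3 per group, with a bar at the mean). Stat3, Socs3, Cish, Pim1, Slc2a1, Egln3 and Nr4a1 are lower in the knockout than in Treg libraries without overlap, while Stat5b, Egr2 and Cd69 are close.

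Of 20 genes of the T cell receptor complex and its proximal signalling 7 were higher, 7 lower and 10 close (18.4%, 26.2% and 32.7% of all genes), with a median log2 difference of -0.09. The CD3 chain genes Cd3e and Cd3g were 1.59-fold and 1.34-fold higher in the knockout. Cd4 was lower, at 199, 224 and 206 TPM against 328, 356 and 337 TPM (1.62-fold). The adaptor gene Lcp2 was 1.77-fold lower, while Ptpn22, encoding a phosphatase that dampens the signal, was 1.34-fold higher. Among CD4 T cell markers, Cd2, an adhesion receptor, was at 149.8, 131 and 144 TPM in the knockout against 1103, 1161 and 1097 TPM in Treg and 1227, 1108 and 1122 TPM in wild-type TH17, so the knockout was 7.92-fold below Treg. Thy1 was 2-fold lower.

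Gzmb, encoding granzyme B, was at 7.37, 6.41 and 6.77 TPM in the knockout and 1244, 1290.0 and 1302 TPM in Treg, the largest difference among the lower genes (log2 difference -7.35, 95% interval -7.49 to -7.21, limma adjusted p = 8.7e-18). Wild-type TH17 libraries were at 6.51, 6.94 and 7.07 TPM, the knockout level. The pore-forming gene Prf1 was 2.51-fold lower and the granzyme gene Gzmc was at 0.733 ± 0.274 against 13.4 ± 1.26 TPM. Against these, Gzmk, another granzyme gene, was at 20.5, 25 and 18.4 TPM in the knockout and listed at 0 in all 3 Treg and all 3 wild-type TH17 libraries. Nkg7, a granule membrane gene, was 3.08-fold higher than in Treg (551 ± 37.2 against 179 ± 9.26 TPM) and Ctsw, a cathepsin of cytotoxic cells, 16.2-fold higher. In all, 12 of 16 cytotoxic granule genes passed the filter, with 4 higher and 7 lower.

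Tbx21, encoding the TH1 factor T-bet, was at 24.7, 21.7 and 19.3 TPM in the knockout, 45.6, 46.4 and 43.1 TPM in Treg and 0.48, 0.6 and 0.73 TPM in wild-type TH17, so the knockout lay between the other two (2.06-fold below Treg, limma adjusted p = 1.49e-05). Eomes, its paralog, was at 2.23, 2.27 and 2.52 TPM against 15.8, 15.1 and 15.1 TPM, 6.54-fold lower (limma adjusted p = 1.51e-09). Ifng was at 16.9, 15.1 and 12.7 TPM in the knockout and 25, 26.6 and 23.1 TPM in Treg, and it did not pass the test in the fit of all libraries (log2 difference -0.71, 95% interval -1.42 to 0.00, limma adjusted p = 0.0979). It passed with only the 6 libraries fitted (adjusted p = 0.00246). Il12rb2, the inducible IL-12 receptor chain, was at 1.05 ± 0.373 against 54.8 ± 2.61 TPM and Il12rb1 was 5.61-fold lower. The IL-18 receptor gene Il18r1 was 3.77-fold higher and the chemokine receptor gene Cxcr3 3.04-fold higher, at 30.6, 28.9 and 27.9 against 9.3, 10.6 and 8.81 TPM. Of 16 TH1 genes that passed, 3 were higher, a share near the 18.4% of all genes, and 9 lower, where 26.2% of all genes were.

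TH2 genes were lower for 8 of 10 that passed (26.2% of all genes), including Il4ra, the IL-4 receptor chain (2.12-fold), and Nfil3 (3.57-fold). Il4 was at 0 in every knockout library and at 5.3, 2.51 and 4.48 TPM in Treg. It passed the filter through the Treg libraries alone, so the filter fixed its direction. Of 10 follicular helper (TFH) genes that passed, 5 were higher, where 18.4% of all genes were, and 2 lower, a share near the 26.2% of all genes. Tox2, a transcription factor of these cells, was at 12.7, 16.4 and 15.6 TPM in the knockout and 0.08, 0.22 and 0.34 TPM in Treg. Tox2 passed through the knockout libraries alone, so the filter fixed its direction. Pdcd1, encoding the inhibitory receptor PD-1, was 1.49-fold higher, Slamf6 3.2-fold higher, and Cd200 1.91-fold lower. With the array weights, or without knockout replicate 2, the lower TFH genes numbered 4. In the checkpoint and costimulatory list 4 were higher and 8 lower of 17, the higher share being near the 18.4% of all genes and the lower share standing beside 26.2%. Havcr2 of this list passed through the Treg libraries alone, so the filter fixed its direction. Cd96 and Cd160, receptors shared with natural killer cells, were at 64.7 ± 4.57 against 7.05 ± 0.559 and 50.9 ± 2.59 against 10.9 ± 1.87 TPM. Cd274, encoding PD-L1, was 2.34-fold lower.

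**Figure D3:**
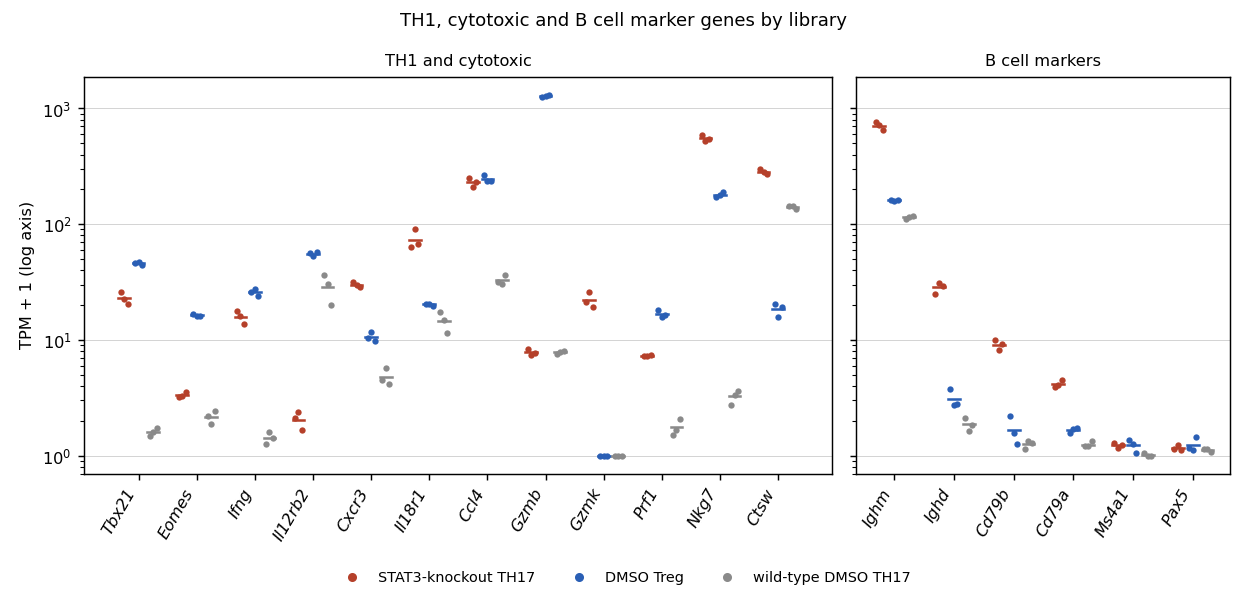
TPM + 1 on a log axis of effector genes and B cell marker genes in each library of STAT3-knockout TH17, Treg and wild-type TH17 cultures (points, 3 per group, with a bar at the mean). Gzmb averages 1279 TPM in Treg and 6.85 and 6.84 TPM in knockout and wild-type TH17 cultures, and Ighm and Ighd are higher in the knockout than in Treg.

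Genes of the TGFβ pathway and its targets were higher in the knockout for 11 of 18 members and lower for 4, with a median log2 difference of 0.71. The labels give different TGFβ doses for the cultures, as described above. Tgfbr2, the ligand-binding receptor, was at 43.1, 48.5 and 41.9 TPM in the knockout and 18.1, 17.3 and 19.3 TPM in Treg (2.44-fold higher, limma adjusted p = 1.64e-06). Ldlrad4 and Ski, which encode inhibitors of SMAD signals, were at 29.5 ± 5.11 against 2.03 ± 0.115 TPM and 2.06-fold higher. Smad3, the SMAD used in FOXP3 induction, was 2.51-fold lower. Smad2 (-0.18 to 0.34) and Smad4 (-0.38 to 0.19) were close by their log2 intervals.

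Among trafficking genes, 8 of the 11 chemokine receptors that passed the filter were higher in the knockout. Of these, 3 (Ccr10, Cxcr6 and Cx3cr1) passed through the knockout libraries alone, so the filter fixed their direction. The 3 lower ones included Ccr4 and Ccr7, but the calls of Ccr4 and Ccr7 ended without ribosomal protein and mitochondrially encoded genes (limma adjusted p = 0.0525 and 0.206). The call of Ccr4 also ended when any library other than knockout replicate 2 was left out (0.0563 to 0.0894). That of Ccr7 ended without knockout replicate 2 (0.0610), knockout replicate 3 (0.0604) or Treg replicate 3 (0.0546), and with median-of-ratios scaling (0.353). Xcl1, a chemokine that attracts dendritic cells, was at 1588, 1513 and 1652 TPM in the knockout and 113, 111 and 103 TPM in Treg (14.5-fold higher). Ccl1, the ligand of CCR8, was 2.5-fold higher and Ccl3 2.31-fold lower. Ccl4 was close (230.0 ± 18.6 against 247 ± 17.3 TPM). Integrins were lower for 9 of 13, including Itga3 (9.54-fold), Itgb3 (5.02-fold) and Itgav (2.96-fold), while Itgb2 and Itga6 were 1.53-fold and 1.43-fold higher.

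Of 14 naive and memory genes 6 were higher and 5 lower, beside 18.4% and 26.2% of all genes. Tcf7, encoding the naive and memory factor TCF1, was at 388, 402 and 353 TPM in the knockout and 134, 139 and 134 TPM in Treg (2.81-fold higher), with wild-type TH17 at 302 ± 23.1 TPM. Foxo1 and Cd27 were 2.1-fold and 1.92-fold higher. Il7r, the receptor for the survival cytokine IL-7, was 3.07-fold lower. Satb1, a chromatin organizer of T cells, was at 28.4, 28.6 and 24.8 TPM in the knockout, 54.7, 52.7 and 50 TPM in Treg and 438, 415 and 321 TPM in wild-type TH17, a 1.92-fold difference between the first and second.

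Interferon response genes were more often lower than higher. Of 18 interferon response genes that passed, 2 were higher, 10 lower and 5 close (18.4%, 26.2% and 32.7% of all genes). Mx1 passed through the Treg libraries alone, so the filter fixed its direction. Ifi27l2a was 2.56-fold lower in the knockout, Isg15 was at 3.87 ± 0.462 against 18.1 ± 1.24 TPM, and Gbp2 was close (-0.02 to 0.26, log2 interval). The higher genes were Ifit3 and Irf9, and the call of Irf9 ended without knockout replicate 1 (limma adjusted p = 0.0589), without knockout replicate 2 (0.0505) and without Treg replicate 3 (0.0691). With median-of-ratios scaling, 4 were higher. Among cell cycle genes 12 of 20 were close, the largest close count of the lists. Of all genes 32.7% were close, and of those at 50 TPM or more 53.1%, so the count is near the share of abundant genes. In this list 1 was higher and 10 lower (18.4% and 26.2% of all genes). The higher gene was Tyms, whose call ended in 6 alternatives, among them without knockout replicate 1 (limma adjusted p = 0.153) or 3 (0.104) and without Treg replicate 1 (0.143) or 3 (0.130). Cdk1, the mitotic kinase, was 1.48-fold lower and Aurkb 1.7-fold lower, while Mcm7, a replication helicase subunit, was close (-0.35 to 0.04). Among p53 response genes Cdkn1a, the inhibitor p21, was 6.05-fold lower (20.4 ± 1.41 against 123 ± 4.08 TPM), Sesn1 3.15-fold higher, and Ccng1 and Fas close.

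Antigen presentation genes were mixed, with 6 higher, 4 lower and 6 close of 14. Of all genes 18.4% were higher, 26.2% lower and 32.7% close, so the lower count is near the share of all genes. The lower count was 2 with median-of-ratios scaling and with quantile normalization. H2-Aa and H2-Eb1, class II chains, were at 13.5, 11.8 and 15.4 against 2.54, 1.95 and 1.6 TPM and 18, 10.7 and 15.9 against 4.2, 3.93 and 3.16 TPM, and H2-DMa was 2.94-fold higher. H2-Ab1 was the opposite, at 13.1, 9.38 and 9.8 against 33.2, 36.2 and 37.3 TPM, 3.31-fold lower. The class I gene H2-D1 was close (-0.09 to 0.14).

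**Figure D4:**
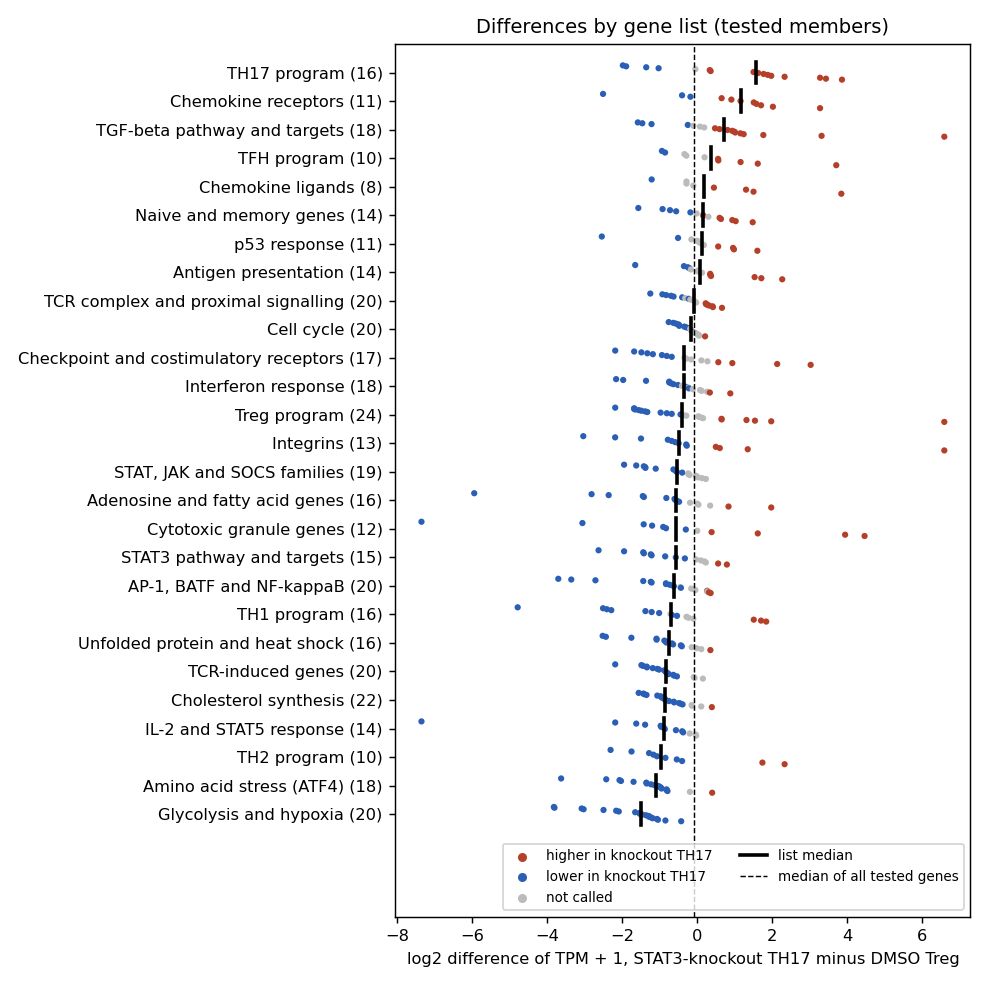
Log2 difference of TPM + 1, STAT3-knockout TH17 minus Treg, of each tested member of the gene lists (points, coloured by call) with the list median (bar) and the median of all tested genes (dashed line). The glycolysis list lies wholly below 0, while the IL-2 and STAT5 list has a median of -0.87 and the TGFβ list one of 0.71.

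Markers of other cell types differed between the cultures. B cell markers summed to 699.9 to 803 TPM in knockout, 164 to 168 TPM in Treg and 116 to 120.0 TPM in wild-type TH17 libraries. Of 10 markers 5 passed the filter, and all were higher in the knockout, including Ighm at 711 ± 53.5 against 161 ± 1.57 TPM, Ighd at 24.2, 29.9 and 28.5 against 2.75, 1.75 and 1.8 TPM, Cd79b at 8.1 ± 0.916 against 0.68 ± 0.484 TPM and Cd79a at 3.15 ± 0.29 against 0.667 ± 0.0945 TPM. Cd79a and Cd79b averaged under 1 TPM in Treg and passed through the knockout libraries. For Cd79a no Treg library reached 1 TPM, so the filter fixed its direction. Of all genes tested, 18.4% were higher. The defining B cell genes Ms4a1 (0.227 ± 0.0611 against 0.23 ± 0.154 TPM), Pax5 (0.157 ± 0.0643 against 0.243 ± 0.181 TPM) and Cd22 (0.127 ± 0.0513 against 0.177 ± 0.0252 TPM) were near 0 in both. Of 34 immunoglobulin genes tested, 33 (97.1%) were higher and none lower, and 26 were past 2-fold. However, 24 of the 34 passed the filter through the knockout libraries alone, with no Treg library at 1 TPM, so their direction was fixed by the filter and the count is no support. Immunoglobulin genes made up 0.104% of TPM in the knockout and 0.0175% in Treg. The class II genes H2-Aa, H2-Eb1 and H2-DMa, which B cells also express, were higher in the same libraries. The class II gene H2-Ab1 was lower there, at 10.7 ± 2.01 TPM in the knockout against 35.6 ± 2.12 TPM in Treg. The part of B cell RNA in these results was not tested.

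CD8 T and natural killer markers summed to 22.8 to 28.3 TPM in knockout and 49.8 to 54.1 TPM in Treg. Of 7 that passed the filter, 2 were higher (Cd8a, at 4.74 ± 0.592 against 0.24 ± 0.0889 TPM, and Cd8b1) and 5 lower. Of all genes 18.4% were higher and 26.2% lower. Cd8a passed through the knockout libraries alone and Klrk1 through the Treg libraries alone, so the filter fixed their direction. The natural killer gene Ncr1 was listed at 0 in all 6 libraries. The part of such cells in the granule gene results was not tested. Gamma delta T cell markers summed to 16.6 to 20.7 against 24.5 to 30.1 TPM and red blood cell markers to 0 to 0.87 against 7.31 to 13.6 TPM. Of 12 myeloid markers 2 passed, Cd68 (10.6 ± 0.807 against 3.59 ± 0.268 TPM) and Itgam (2.46 ± 0.301 against 0.357 ± 0.0814 TPM), both higher in the knockout. Itgam passed through the knockout libraries alone, so the filter fixed its direction. Tyrobp, S100a8 and S100a9 were listed at 0 in all 6 libraries.

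Among the genes with the largest differences, several lie outside the lists above. Higher in the knockout were Lcn10 (78.4, 67.8 and 70.3 against 1.17, 0.36 and 0.87 TPM), the acid-sensing channel gene Asic3 (33.3, 36.3 and 31.8 against 0, 0.17 and 0.04 TPM) and Tff1, a trefoil peptide gene (25.5 ± 2.34 against 0.0633 ± 0.11 TPM). Lamc3, a laminin chain, was at 24.8 ± 2.55 against 0.0367 ± 0.0231 TPM and Rasgrp3, a Ras activator, at 23 ± 6.35 against 0.113 ± 0.00577 TPM. Cd72 (49.2 ± 6.33 against 1.89 ± 1.16 TPM) and Spib (18.4 ± 1.59 against 0.223 ± 0.176 TPM) are known from B cells, and Cyp1a1 (16.5 ± 0.529 against 0.0533 ± 0.0208 TPM) from the aryl hydrocarbon receptor. The genes with the largest differences were picked among genes without overlap between the groups, so their lack of overlap was fixed in advance. For Asic3, Tff1, Lamc3, Rasgrp3, Spib and Cyp1a1 no Treg library reached 1 TPM, so the filter fixed their direction. In wild-type TH17 libraries the higher genes named here were also low, apart from Cd72 at 11.8 ± 1.67 TPM.

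Lower in the knockout were Tgm2, a transglutaminase (0.09, 0.13 and 0.02 against 50.3, 46.8 and 50.9 TPM), the growth cone gene Gap43 (1.18, 0.57 and 0.3 against 53.8, 53.9 and 52.7 TPM) and Il3, a growth factor for blood cell progenitors (1.08, 0 and 0.43 against 39.9, 46.8 and 44.6 TPM). The ubiquitin-like modifier gene Ubd was at 1.2 ± 0.734 against 61.4 ± 2.82 TPM and Pcx, pyruvate carboxylase, at 2.16 ± 0.329 against 62.5 ± 4.07 TPM. Plaur, the urokinase receptor, was at 0.277 ± 0.193 against 22.4 ± 2.65 TPM and Lama5, a laminin chain, at 1.3 ± 1.17 against 36.8 ± 1.6 TPM. Tgm2 was higher still in wild-type TH17 (211 ± 32.8 TPM), whereas Il3 was as low there (0.843 ± 0.627 TPM) as in the knockout. For Tgm2 and Plaur no knockout library reached 1 TPM, so the filter fixed their direction.

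Among the most abundant genes that were close were Eef1a1, a translation elongation factor, at 13428 ± 391 TPM in the knockout and 14377 ± 61.6 TPM in Treg (95% interval of the log2 difference -0.19 to -0.01), and Tmsb4x, an actin-binding peptide (3956 ± 149 against 3914 ± 84.6 TPM, interval -0.10 to 0.13). Tpt1 (-0.01 to 0.23) and Ptma (-0.43 to -0.26) were close by the same criterion. B2m, the light chain of class I molecules, was close and also called higher (1.27-fold, interval 0.20 to 0.50). Actb was close (-0.29 to 0.03) but not with quantile normalization, where its log2 difference was -0.32.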

How the data were processed

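The series table holds TPM per gene and library. Per the submitters' processing notes, reads were processed with STAR 2.7.9a and RSEM 1.3.3 on GRCm38, and TPM is the unit of the values as the authors deposited them. For the annotation release and the strand setting, nothing is given in the sources used here. RSEM divides reads among similar transcripts, so levels of near-identical copies and overlapping genes are uncertain, and TPM keeps no read depth. Gene IDs were named with GENCODE M21, which matched 55154 of 55421 IDs.

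Levels were taken as log2(TPM + 1). limma 3.58.1 (R 4.3.3) with a variance trend fitted 5 group means to all 15 libraries (10 residual degrees of freedom), with Benjamini-Hochberg adjustment over the 11896 genes. A pseudocount of 0.1, filters, scalings, array weights, the 6 libraries alone, a replicate block and leaving out each of the 6 libraries were tried. The fits were tested on simulated data. Shares of TPM were compared by an exact permutation test of 3 against 3.

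The cultures compared, the 33 gene lists and the rules for named genes were chosen with earlier results of these data known, so list counts are descriptions. Named genes are 16 fixed ones, the 10 with the largest difference in each direction among genes without overlap and with at least 5 TPM in the higher group, up to 4 called members per list and direction with the smallest adjusted p, up to 3 close members per list, and the 10 most abundant close genes. A few further members were named for their values. Promoters come from RefSeq GRCm38.p6. Inhibitor-treated libraries entered only the estimate of spread. Some genes of the lists and of the rule for named genes are not reported here.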

Additional observations from a re-analysis of the deposited data

How the results depend on the processing

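Of 16 alternatives, none called a gene in the direction opposite to its main call. Between 4395 (without knockout replicate 3) and 5244 (array weights) of the 5309 calls were kept. Without the level filter 10197 of 21209 genes were close in place of 3885 of 11896, because many genes near 0 TPM entered. Every other total stayed within 1.5 times its main value. Leaving out 1 library gave 1869 to 2030 genes higher and 2516 to 3326 lower, 221 to 227 and 276 to 307 past 2-fold, and 3236 to 3436 close. It gave 5466 to 5973 calls between knockout and wild-type TH17, and 4656 to 5623 between Treg and wild-type TH17. The libraries share replicate numbers, but same-numbered knockout and Treg libraries did not deviate together (r from -0.063 to -0.029), and 0 of the 3 knockout libraries correlated best with its own number. With the replicate number as a block, 2131 genes were higher and 3036 lower, 237 and 307 past 2-fold, and 3812 close. Of 202 named genes with a call, 20 lost it under at least 1 alternative, and 7 named genes that were close were not under at least 1. Of 1056 list counts, 45 moved by more than 1.5 times, 11 of them with the 5 TPM filter, which removes members. Genes under 5 TPM had the widest intervals, and depth is unknown.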
